A study of Homo sapiens with 24 samples.

Results

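The members described here were 76 microarray probes that read as silent in SW-13 cells given a control siRNA (siCtrl) and were switched on by siRNA against SUZ12 (labelled siSUZ, here siSUZ12). They were chosen from 47231 probes. Each array was scaled to a common mean signal and log2 was taken. A probe was a member if its detection p-value, the chance of such a signal arising from background, was 0.01 or more in all 3 untreated siCtrl arrays and below 0.01 in all 3 untreated siSUZ12 arrays, if its mean signal was at least 2-fold higher after siSUZ12, and if IFNγ added less than a log2 change of 1 in siSUZ12 cells. The untreated siCtrl and siSUZ12 arrays and the IFNγ-treated siSUZ12 arrays therefore chose the members, and values from them are given as a description without a test.

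SW-13 cells derive from a human adrenal cortex carcinoma and lack BRG1. They received siCtrl or siSUZ12 at 50 nM in 2 rounds of transfection, with or without siRNA against BRM (siBRM) at 75 nM. IFNγ was then given for 6 hours or withheld. All 8 combinations were hybridized in 3 arrays each (replicates I to III) to Illumina Human-HT-12 BeadChips, giving 24 arrays. Every group carried siCtrl or siSUZ12, and an untransfected group was not analysed here. The groups with siBRM received more siRNA in total than those without, so the effect of losing BRM and that of the added siRNA cannot be told apart.

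SUZ12 is a core subunit of Polycomb Repressive Complex 2 (PRC2), which through its enzyme EZH2 places the repressive mark H3K27me3 on histone H3. PRC2 is best known for holding developmental regulator genes silent in cells that do not use them. BRG1 and BRM are the alternative ATPases of SWI/SNF, a chromatin remodeling complex that opens chromatin and opposes Polycomb repression at many genes. IFNγ is a cytokine of the immune response.

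The arrays were of similar quality. The mean signal before scaling ranged from 532 to 635. The number of probes detected was 15223 to 16269 in the arrays without siSUZ12 and 15565 to 16799 in those with it. Detection thus ran somewhat higher with siSUZ12, and the choice of members and the on and off counts rest on it. Correlations of log2 signal over all probes were 0.994 to 0.995 between replicates and 0.982 to 0.994 between arrays of different groups, and the median residual SD was 0.11. The median scaled signal was 92.3 to 105 for undetected probes and 342 to 402 for detected ones. The former is the floor from which the members' signals are read. The table carries probe IDs without gene names, so the levels of SUZ12 and BRM, the markers of the cell line and the roles of the members were not analysed here, and probes that report the same gene were not grouped.

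Of the 47231 probes, 30520 (64.6%) were silent in the 3 untreated siCtrl arrays. Few of them were detected after siSUZ12: 447, or 1.46% of the silent probes, were detected in all 3 untreated siSUZ12 arrays. Of these 447, 76 were at least 2-fold higher, which is 0.249% of the silent probes and 0.161% of all probes. The limit on the IFNγ effect removed 0 probes. The 3 members nearest the fold threshold had log2 differences of 1.002, 1.008 and 1.014, and the nearest probes that missed it had 0.986, 0.976 and 0.967. In 57 of the 76 members the detection p-value was 0.05 or more in all 3 siCtrl arrays.

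The median member signal was 102 to 110 in the 3 untreated siCtrl arrays and 283 to 290 in the 3 untreated siSUZ12 arrays. Group means of single members ran from 63.9 to 130 in siCtrl cells and from 150 to 2339 in siSUZ12 cells. After siSUZ12, 66 members were above a signal of 200, 35 above 300, 7 above 500 and 1 above 1000. Signals of different probes depend on the probe as well as on the transcript, so these heights do not rank expression levels. The log2 difference between siSUZ12 and siCtrl had a median of 1.44, a 2.71-fold rise, with quartiles of 1.20 and 1.76 and a highest value of 4.33. The second largest difference was 2.59, so a single member stood far above the others.

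The first question was whether the same probes rose when SUZ12 was knocked down in cells that also received siBRM, since none of those arrays took part in choosing the members. In untreated cells the median member signal was 104 to 112 in the 3 siCtrl + siBRM arrays and 247 to 252 in the 3 siSUZ12 + siBRM arrays. All 76 members were raised at an adjusted p below 0.05 (limma fitted to all 24 arrays, Benjamini-Hochberg over 47231 probes), against 5.04% of all probes, and the highest adjusted p among them was 0.00174. By size, 54 of the 76 were raised at least 2-fold, against 0.241% of all probes. The log2 differences ran from 0.38 to 4.85, with a median of 1.17 (2.25-fold) where the median over all probes was 0.04. In each of the 76 members the 3 siSUZ12 + siBRM arrays were all above the 3 siCtrl + siBRM arrays, a separation seen in 7101 of all probes (15%).

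With IFNγ present the members were again higher after siSUZ12. The median member signal was 103 to 109 in the siCtrl + siBRM + IFNγ arrays and 233 to 238 in the siSUZ12 + siBRM + IFNγ arrays. Again all 76 members were raised at an adjusted p below 0.05 (limma), against 4.72% of all probes, with a highest adjusted p of 0.00101. At 2-fold or more there were 48 of the 76, against 0.292% of all probes. The log2 differences ran from 0.39 to 4.93 with a median of 1.14 (2.20-fold), and the median over all probes was 0.02. In each of the 76 members the siSUZ12 + siBRM + IFNγ arrays were all above the siCtrl + siBRM + IFNγ arrays. The same was seen in 11.3% of all probes. Background correction with neqc gave larger differences, with member medians of 2.12 in untreated and 2.12 in IFNγ-treated cells, so the fold values depend on how much of the low signal is taken as background. In bulk RNA, a change in the number of cells that express a gene and a change in RNA per cell cannot be told apart.

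Members with a large difference in the arrays that chose them also had a large difference in the siBRM arrays. Of the 11 members with a log2 difference of 2 or more without siBRM, all 11 were raised at least 2-fold in siBRM cells, both untreated and with IFNγ. Of the 24 members between 1.5 and 2, 21 were raised at least 2-fold in untreated and 22 in IFNγ-treated siBRM cells. Of the 41 members between 1 and 1.5, 22 and 15 were. Across the 76 members, Pearson's r between the untreated differences without and with siBRM was 0.88, and 0.79 without the largest member, with a Spearman's rho of 0.76. These are descriptions over probes that share the arrays and the scaling. Of the 10 members with the largest difference in each background, 7 were the same.

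The largest rise belonged to ILMN_1764690. Its signals were 117, 117 and 115 in the 3 untreated siCtrl arrays and 2263, 2404 and 2350 in the 3 untreated siSUZ12 arrays. In siBRM cells they were 118, 145 and 124 with siCtrl and 3708, 3855 and 3555 with siSUZ12. The groups were far apart in both backgrounds, and the siSUZ12 + siBRM arrays were above every siSUZ12 array. In siBRM cells the log2 difference was 4.85 ± 0.08 (SE, n = 3 against 3, adjusted p = 1.0e-30, limma). Its control signals were near the floor, and with neqc the difference was 6.16. With IFNγ the mean signal went from 2339 ± 70.9 to 2474 ± 136 (SD, n = 3) in siSUZ12 cells and from 3706 ± 150 to 3927 ± 221 in siSUZ12 + siBRM cells, a log2 difference of 0.08 ± 0.08 in the latter (SE, adjusted p = 0.864, limma).

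The smallest difference in untreated siBRM cells belonged to ILMN_1771599. Its signals were 127, 120 and 124 in siCtrl and 265, 262 and 246 in siSUZ12 arrays. In siBRM cells they were 120, 123 and 117 with siCtrl and 168, 154 and 148 with siSUZ12. The last 3 arrays were above all 6 controls and below all 3 siSUZ12 arrays without siBRM. The log2 difference in siBRM cells was 0.38 ± 0.08 (SE, n = 3 against 3, adjusted p = 0.00174, limma), and without replicate 1 it was 0.33 and missed the threshold (adjusted p = 0.0554). With IFNγ it was 0.60 ± 0.08 (adjusted p = 2.66e-06), and 1.21 with neqc.

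In cells with siSUZ12 the members were on balance lower when siBRM was added. Without IFNγ the signal with siBRM was 85.8% of that without it on median, with a range of 49.8% to 158%, and 61 of the 76 members were lower. With IFNγ it was 86.6% on median, with a range of 46.8% to 159%, and 60 were lower. There were 56 members lower and 11 higher with siBRM in both states. The median log2 difference was -0.22 untreated and -0.21 with IFNγ, where the medians over all probes were -0.01 and 0.03. These values carry no test. The members were chosen for being high in the untreated siSUZ12 arrays without siBRM. The IFNγ-treated siSUZ12 arrays without siBRM entered the rule through the limit on the IFNγ effect.

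The siSUZ12 effect itself was likewise smaller beside siBRM for most members, again as a description. In untreated cells it was smaller in 62 members and larger in 14, and the median ratio of the log2 differences was 0.823. With IFNγ it was smaller in 63 and larger in 13, with a median ratio of 0.824. At 2-fold or more, 45 members were raised in both siBRM comparisons, 9 in untreated cells alone, 3 with IFNγ alone and 19 in neither. Those 19 had a median siSUZ12 signal of 212 without siBRM and 161 with it, and the 45 had 355 and 303. In 8 members, ILMN_1764690 among them, the siSUZ12 effect was at least as large with siBRM in both states. Their median signal was 322 in siSUZ12 and 425 in siSUZ12 + siBRM cells. These groups were cut by the siSUZ12 effect in siBRM cells, so their signals there partly follow from the choice.

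In siCtrl cells the members lay near the floor, so a fall with siBRM could hardly be read there. The IFNγ-treated siCtrl groups took no part in the choice. Between them siBRM raised 4 of the 76 members (5.26%, adjusted p below 0.05, limma) and lowered 0. Of all probes 1.41% were raised and 1.72% lowered, and of the 30520 silent probes 0.111% and 0.0623%. At an unadjusted p below 0.05 there were 11 members (14.5%), beside 11.99% of all probes. The 4 had log2 differences of 0.30 to 0.53 and mean signals of 129 to 140 with siBRM, close to the floor, and ILMN_1764690 was among them at 0.30 ± 0.08 (SE, adjusted p = 0.0327). The number fell to 3 without replicate 1 and to 1 without replicate 2 or without replicate 3. The member median was 0.01 with IFNγ and 0.03 in untreated cells.

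For comparison, 125 probes were detected in all 3 untreated siCtrl arrays and raised 2-fold by siSUZ12 under the same IFNγ limit. Their siSUZ12 effect without siBRM was smaller from the start, with a median of 1.23 beside 1.44 for the members. In untreated siBRM cells it had a median of 0.81, and 47 of them (37.6%) were raised at least 2-fold, beside 71.1% of the members. The sets were not matched for the starting effect, so these shares do not compare how well it held. With IFNγ the count was 45 (36.0%), beside 63.2% of the members. In IFNγ-treated siCtrl cells siBRM raised 46 of these 125 probes and lowered 9, with a median of 0.20. A further 371 silent probes, taken without the IFNγ limit, were detected in all 3 siSUZ12 arrays with less than a 2-fold rise. In untreated siBRM cells siSUZ12 raised 187 of them (50.4%), with a median of 0.28, and 2 reached 2-fold. Between the IFNγ-treated siCtrl groups siBRM raised 15 of the 371 (4.04%) and lowered 3. With siBRM in siSUZ12 cells these sets were lower too: the 125 probes had medians of -0.15 untreated and -0.15 with IFNγ (81 and 83 lower), and the 371 had -0.12 and -0.06 (287 and 245 lower). The differences between these sets were not tested, since the sets were cut from the same contrast.

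The on and off states were then read from detection alone. In the siCtrl + siBRM arrays 64 of the 76 members were detected in 0 of 3 arrays, both untreated and with IFNγ, and 3 and 4 members were detected in all 3. In the siSUZ12 + siBRM arrays 71 members were detected in all 3 untreated arrays and 66 in all 3 IFNγ arrays. A member was off in all 3 control arrays and on in all 3 siSUZ12 arrays in 59 of 76 cases in untreated siBRM cells, against 0.635% of all probes, and in 54 of 76 cases with IFNγ, against 0.498%. Counting on and off at a detection p of 0.05 gave 41 and 46. Over all 24 arrays, 60 members were detected in none of the 12 without siSUZ12 and 66 in all 12 with it. Both held for 50 members, out of 85 such probes on the whole array, a count that includes the arrays used for the choice.

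When detection and the 2-fold rise were asked for together, 50 probes met these criteria in untreated siBRM cells (0.106% of all), of which 46 were members. That is 92.0% of the 50 and 60.5% of the members. In IFNγ-treated siBRM cells 56 probes met them (0.119% of all), and 38 were members, 67.9% of that list and 38 of the 76 members. In IFNγ-treated cells without siBRM there were 82 (0.174% of all), and 57 were members, 69.5% of the list and 57 of the 76 members. Of the members, 35 met the criteria in all 4 comparisons of siSUZ12 with siCtrl, 7 in 3, 22 in 2 and 12 only in the untreated cells that chose them.

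Last, the members were followed under IFNγ. In siCtrl + siBRM cells 0 of the 76 passed (adjusted p below 0.05, limma), against 0.987% of all probes raised and 0.315% lowered. At an unadjusted p below 0.05 there were 11 (14.5%), beside 8.71% of all probes, the lowest adjusted p was 0.0786, and other settings of the same tool called 0 to 4. Log2 differences ran from -0.29 to 0.36 with a median of 0.00. In siCtrl cells without siBRM they ran from -0.17 to 0.31 with a median of 0.01. Across the groups without siSUZ12, the highest group mean of any member was 162.

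In siSUZ12 + siBRM cells IFNγ changed 15 of the 76 members, raising 6 (7.89%) and lowering 9 (11.8%). Of all probes 1.44% were raised and 0.915% lowered. Such shares were not particular to the members. Of the 125 probes already detected with siCtrl and raised 2-fold by siSUZ12, 7.2% were raised and 16.8% lowered. Of the 371 silent probes with less than a 2-fold rise, 3.50% were raised and 1.35% lowered. These 371 were taken without the limit on the IFNγ effect, which 6 of them would not have met. The median over the members was -0.07 and over all probes -0.02. The 6 rose by 0.30 to 1.20 on the log2 scale, and in siSUZ12 cells without siBRM their differences were 0.22 to 0.80. The 9 had differences of -0.50 to -0.29, and -0.65 to -0.09 without siBRM. Of the 9, siSUZ12 raised 7 at least 2-fold in untreated siBRM cells and 3 with IFNγ, and 9 were detected in all 3 untreated and 7 in all 3 IFNγ-treated siSUZ12 + siBRM arrays. The 6 that rose met both in both states. The groups were formed from the same siSUZ12 + siBRM arrays, so these counts are a description. The counts fell when 1 replicate number, and so an array of every group, was left out. Then 6 members passed without replicate 1, 5 without replicate 2 and 9 without replicate 3. These fits rest on fewer arrays, and the cause of the fall was not tested. Across the 76 members the IFNγ differences in siSUZ12 cells without and with siBRM had the same sign in 64, with a Pearson's r of 0.82 and a Spearman's rho of 0.71, as a description over probes.

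A single member was raised at least 2-fold, against 0.296% of all probes, and this was ILMN_1720606. Its signals in siSUZ12 + siBRM cells were 291, 288 and 259 untreated and 618, 630 and 670 with IFNγ. In siCtrl + siBRM cells they were 113, 111 and 112 untreated and 134, 133 and 131 with IFNγ. The IFNγ arrays were above the untreated arrays in both, by a small step near the floor with siCtrl and by a large one with siSUZ12. The log2 difference was 1.20 ± 0.08 with siSUZ12 (SE, n = 3 against 3, adjusted p = 6.80e-14, limma) and 0.25 ± 0.08 with siCtrl (adjusted p = 0.152). The difference between these was itself tested and was 0.95 ± 0.11 (SE, adjusted p = 1.31e-06, limma interaction of the 4 siBRM groups). It was the only one of the 76 members (1.32%) to pass that test, against 0.0974% of all probes raised and 0.0191% lowered. A like share passed among the 125 probes, 2 (1.6%). Of the 371, taken without the IFNγ limit, 6 passed (1.62%). All of these were raised. At an unadjusted p below 0.05 there were 16 members (21.1%), beside 4.88% of all probes, 17 of the 125 and 36 of the 371. Without siBRM the mean signal of ILMN_1720606 went from 370 ± 11.7 to 645 ± 8.85 (SD, n = 3) in siSUZ12 cells. In siCtrl cells it went from 106 ± 7.30 to 124 ± 11.5.

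The lowest IFNγ difference in siSUZ12 + siBRM cells belonged to ILMN_1651490. Its signals there were 271, 270 and 227 untreated and 207, 170 and 166 with IFNγ, and the groups did not overlap. In siCtrl + siBRM cells they were 129, 124 and 111 untreated and 107, 113 and 85.4 with IFNγ, and the groups overlapped. The log2 difference was -0.50 ± 0.10 with siSUZ12 (SE, n = 3 against 3, adjusted p = 0.00244, limma) and -0.26 ± 0.10 with siCtrl (adjusted p = 0.373), and the difference between these, -0.24 ± 0.15, did not pass (adjusted p = 0.9999). Without replicate 2 the siSUZ12 value was -0.42 and missed the threshold (adjusted p = 0.223). In siSUZ12 cells without siBRM its mean signal went from 256 ± 16.9 to 163 ± 16.6 (SD, n = 3), and 144 to 174 remained in the 3 IFNγ arrays, above the 90.7 to 109 of the 3 siCtrl + IFNγ arrays.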

How the data were processed

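RNA of SW-13 cells was amplified to cRNA and hybridized to Illumina Human-HT-12 BeadChips, in what the study's methods describe as biological replicates. The authors deposited 1 table of intensity per probe and array, without normalization, with a detection p-value beside each intensity. Per the labels, BeadStudio was used, and the methods name average normalization. This was taken as scaling each array to the mean of the array means. Log2 followed, with a floor of 16 that acted on 0 values. limma 3.58.1 in R 4.3.3 (lmFit, eBayes) was fitted once, over the 24 arrays and 8 group means, with 16 residual degrees of freedom. Adjusted p-values are Benjamini-Hochberg over 47231 probes, and calls are at 0.05, with a log2 change of 1 where 2-fold is named. The fit was tested on simulated data. Permuting 3 arrays against 3 cannot go below a p of 0.1. Arrays give no counts, and 3 per group limit the precision. Counts and summaries were made in Python 3.11.15.

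The members and all lists were chosen with earlier results of these data known. The effect of siBRM in IFNγ-treated siCtrl cells, the IFNγ interaction, the member medians and the alternatives for on and off states were added after seeing the data. The gene name tables at hand matched 0 of the probe IDs, so the planned gene lists, targeted genes, cell type markers and promoters could not be applied. The rule for naming took the members largest without and with siBRM, smallest with siBRM, and changed by IFNγ. From those, 2 probes that rose and 2 that were lowest were printed.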

Additional observations from a re-analysis of the deposited data

Results flagged for a closer look

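ILMN_1720606 was set apart because its IFNγ effect differed between siSUZ12 + siBRM and siCtrl + siBRM cells by 0.95 on the log2 scale (SE 0.11, adjusted p = 1.31e-06, limma interaction). The mean signal with IFNγ was 639 ± 27.1 in siSUZ12 + siBRM and 133 ± 1.504 in siCtrl + siBRM cells (SD, n = 3). Over 10 alternative settings the difference stayed between 0.855 and 1.003, and the highest adjusted p was 0.00600. Groups of 3 arrays are too small for a search for single deviating arrays.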

How the results depend on the processing

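The rule gave 76 probes, 73 after quantile normalization (73 of them members), 58 at a detection p below 0.05 (57 members), 77 to 79 without 1 replicate number, 216 after neqc background correction and 182 at 1.5-fold. In siBRM cells, 54 members were raised 2-fold in untreated cells (52 to 55 without 1 replicate number, 46 to 76 over all settings) and 48 with IFNγ (47 to 49, and 46 to 76 over all settings, the 76 at adjusted p alone). At adjusted p alone all 76 passed in both under every other setting run, except 75 in untreated cells without replicate 1. Members changed by IFNγ in siSUZ12 + siBRM cells fell from 15 to 5 to 9 without 1 replicate number, the raised from 6 to 2 to 4 and the lowered from 9 to 1 to 7. The lowered were 15 where only probes detected in at least 3 arrays were tested, which adjusts over fewer probes. In siCtrl + siBRM cells the 0 members changed by IFNγ became 1 with quantile normalization, trend and robust eBayes or the replicate block, 3 with that detection filter and 4 with neqc. For siBRM in IFNγ-treated siCtrl cells the 4 became 1 to 3 without 1 replicate number. The interaction called 2 members, not 1, with the detection filter. The causes of these changes were not tested. Switched-on counts by detection, 59 and 54, were 60 to 61 and 55 to 60 without 1 replicate number. No called value of the printed probes reversed its direction in the settings run, and neither did the member medians of the siSUZ12 effect. The directions of the other members called for IFNγ or siBRM were not followed one by one. The member median of the IFNγ effect in siCtrl + siBRM cells, which was not a called value, went from -0.0042 to 0.0226 without replicate 2.

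The main fit did not treat the replicate numbers as pairing the samples, although same-numbered arrays tended to deviate alike. Of 84 same-numbered pairs of groups, 43 had deviations correlated over 0.1 (-0.10 to 0.36, median 0.10). The median for other numbers was -0.05. With the replicate block, 54 and 48 members were raised 2-fold, 15 changed with IFNγ in siSUZ12 + siBRM cells (the 15 of the unblocked fit) and 1 in siCtrl + siBRM cells.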
